A study of Mus musculus with 3 samples.

Results

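Isolated distal DNase I hypersensitive sites lying more than 10 kb and at most 100 kb from the nearest annotated transcript start were described in embryonic mouse liver. A site was selected on the deposited peaks: it had a peak in all 3 replicates, and it did not belong to a chain of 3 or more sites, each over 1 kb from a start, with gaps of 12.5 kb or less. These conditions left 3212 isolated sites among the 24196 regions common to all 3 replicates, and among 61155 regions with a peak in any replicate. Without replicate 1, which has the fewest peaks, the same conditions gave 5886. The 3212 sites made up 13.27% of the common regions and 36.46% of the 8810 common regions over 1 kb from a start. All libraries came from 1 group, liver of 13.50-day embryos on a mixed C57BL/6N,129 background, homozygous for a globin mutation that removes HS2 and HS3. The labels number 3 biological replicates and give the sex as not collected. No liver without the deletion is analysed here, so no genotypes were compared.

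DNase I cuts chromatin where nucleosomes have been displaced, so its hypersensitive sites mark promoters, enhancers and the binding sites of insulator proteins. CTCF is an insulator protein that stays on its site for long periods and anchors chromatin loops together with cohesin. GATA1, the master regulator of red cell precursors, binds enhancers together with TAL1, KLF1 and NF-E2, and the liver is the main site of red cell production in the embryo. A footprint is a short stretch inside a hypersensitive site with fewer cuts than its surroundings, as a bound protein can leave.

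Replicates 1, 2 and 3 contributed 28209, 57314 and 41319 peaks from the shorter of their deposited lists. Among promoters of cell type markers, a common region reached within 500 bp of a start for 6 of 7 erythroid markers, the exception being Alas2. The same held for 0 of 5 hepatoblast, 0 of 3 macrophage and 0 of 3 endothelial markers, so the defining promoters of those cell types were not open by this measure. Replicate 2 listed the most peaks and replicate 1 the fewest. Fewer cells of a type and weaker cutting per cell cannot be told apart in whole tissue.

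The kinds of sequence found in isolated sites are shown first, as windows of 200 bp centred on the bases covered by a peak in every replicate (GRCm38, the build of the files; plus strand; sequence from RefSeq). Each window is named after the nearest protein-coding transcript start, which is a label of position and not a target. This start can lie more than 100 kb away, and "near" a gene is used in this sense throughout. The windows below are among the strongest of their kind. The first 3 hold the CTCF core, shown in capitals, at chr17:84114011-84114210, chr7:110164861-110165060 and chr9:111289961-111290160, all between genes.
Zfp36l2: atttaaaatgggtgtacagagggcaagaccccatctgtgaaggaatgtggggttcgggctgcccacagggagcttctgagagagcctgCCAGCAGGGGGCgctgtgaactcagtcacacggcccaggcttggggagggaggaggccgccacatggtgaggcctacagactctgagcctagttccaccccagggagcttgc
Wee1: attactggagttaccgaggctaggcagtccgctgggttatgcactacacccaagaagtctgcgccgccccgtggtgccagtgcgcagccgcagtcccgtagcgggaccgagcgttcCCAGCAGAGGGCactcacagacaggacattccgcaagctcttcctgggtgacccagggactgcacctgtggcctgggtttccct
Epm2aip1: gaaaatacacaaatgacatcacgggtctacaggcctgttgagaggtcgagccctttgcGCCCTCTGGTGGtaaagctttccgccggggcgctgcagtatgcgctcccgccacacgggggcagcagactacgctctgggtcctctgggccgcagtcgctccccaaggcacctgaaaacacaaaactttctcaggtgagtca
Near Zfp36l2, which codes for a protein that promotes decay of messenger RNAs, the core lay in a footprint of 30, 32 and 30 bp in replicates 1, 2 and 3. Near Epm2aip1 the core lay in a footprint of 19, 28 and 18 bp. Near Wee1, whose product is a kinase that holds back entry into mitosis, no footprint covered the core in any replicate.

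The next windows hold a GATA word (GATA with A or T before it and A or G after it) together with an E-box CAGATG or a KLF word CCNCNCCC, with each of these words in capitals. They lie in an intron of Jarid2 at chr13:44869531-44869730, in an intron of the noncoding gene D130009I18Rik at chr14:104715691-104715890, and in an intron of Lipc, the gene of hepatic lipase, at chr9:70834881-70835080. The window in D130009I18Rik is named after Rnf219, whose start is 193 kb away.
Jarid2: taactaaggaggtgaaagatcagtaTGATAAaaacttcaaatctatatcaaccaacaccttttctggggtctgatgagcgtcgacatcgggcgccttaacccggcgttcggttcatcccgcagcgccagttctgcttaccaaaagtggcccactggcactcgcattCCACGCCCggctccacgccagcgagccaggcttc
Rnf219: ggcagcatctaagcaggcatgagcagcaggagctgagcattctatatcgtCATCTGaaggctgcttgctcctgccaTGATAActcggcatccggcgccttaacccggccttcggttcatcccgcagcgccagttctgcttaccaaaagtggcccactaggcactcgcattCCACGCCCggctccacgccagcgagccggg
Lipc: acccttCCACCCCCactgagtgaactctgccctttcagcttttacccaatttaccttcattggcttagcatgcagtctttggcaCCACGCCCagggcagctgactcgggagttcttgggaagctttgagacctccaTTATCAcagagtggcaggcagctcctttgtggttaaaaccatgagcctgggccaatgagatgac
The windows near Jarid2 and Rnf219 shared an identical stretch of 48 bp, beginning at base 107 of one and base 110 of the other. Reads from such copies can be hard to place, and their signal was 34.3, 22.5 and 35.8 near Jarid2 and 12.7, 8.13 and 12.3 near Rnf219, lowest in replicate 2 at both. The Lipc site, whose 32-base words all occur once on the assembled chromosomes, had 7.51, 12.3 and 6.87, highest in replicate 2.

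Another pair of windows holds the longer NF-E2 word GCTGAGTCA, in capitals, between genes at chr16:8810901-8811100 and chr5:137103051-137103250. NF-E2 is a heterodimer that activates globin and other red cell genes.
Usp7: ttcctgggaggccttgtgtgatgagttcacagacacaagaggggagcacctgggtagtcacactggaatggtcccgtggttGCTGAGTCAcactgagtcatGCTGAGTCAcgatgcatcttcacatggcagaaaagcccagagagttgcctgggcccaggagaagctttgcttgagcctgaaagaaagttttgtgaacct
Trim56: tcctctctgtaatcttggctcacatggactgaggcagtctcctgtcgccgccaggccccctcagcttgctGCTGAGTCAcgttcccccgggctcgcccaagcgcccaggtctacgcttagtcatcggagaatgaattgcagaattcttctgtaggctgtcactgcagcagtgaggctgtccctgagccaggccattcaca
The window near Usp7, which codes for a deubiquitinating enzyme, carried the word at bases 82 and 102, and a footprint of 39, 40 and 39 bp lay over the words in replicates 1, 2 and 3. Near Trim56 no footprint covered the word in any replicate. The signal near Usp7 was 5.9, 7.15 and 5.35, and near Trim56 it was 5.46, 7.92 and 4.32, highest in replicate 2 at both.

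The last pair holds the word GCGCNTGCG of NRF1, a factor bound mainly at CpG-rich promoters, in capitals. These are the strongest sites with the word, between genes at chr16:17222281-17222480 and chr5:142367351-142367550, and they were chosen after the values were seen.
Hic2: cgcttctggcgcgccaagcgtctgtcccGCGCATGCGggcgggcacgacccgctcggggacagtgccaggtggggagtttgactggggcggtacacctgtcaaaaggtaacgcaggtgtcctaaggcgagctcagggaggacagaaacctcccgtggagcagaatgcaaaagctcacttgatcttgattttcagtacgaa
Foxk1: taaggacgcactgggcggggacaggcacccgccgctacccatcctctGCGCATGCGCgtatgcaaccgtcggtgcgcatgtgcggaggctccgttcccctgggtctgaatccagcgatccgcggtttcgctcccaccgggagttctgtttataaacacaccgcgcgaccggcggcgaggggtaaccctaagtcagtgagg
The footprint over the word was 36, 36 and 48 bp wide near Hic2 and 24, 23 and 23 bp near Foxk1. The signal was 19.8, 11.9 and 22.9 near Hic2 and 15.9, 19.2 and 14.7 near Foxk1, against a median over all isolated sites of 1.31, 1.60 and 1.42. Of the 32-base words 63.6% occurred once at the Hic2 site and 100% at the Foxk1 site.

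Of the 20 words searched, the CTCF core differed most in share between the isolated sites and their surroundings. It was searched on both strands with a consensus of 12 bases, and it lay in the window of 789 of 3212 isolated sites (24.6%, 95% Wilson interval 23.1% to 26.1%). The share was 20.6% in isolated regions 1 to 10 kb from a start, 12.6% in clustered distal regions, 9.09% of the 77 regions over 100 kb away and 2.6% of regions within 1 kb. Over all 24196 common regions 9.25% held the core. Windows of the same length 1 kb to each side of the isolated sites, where they touched no region, held it in 9 of 6189 cases (0.145%). With bases 3 to 5 of the core left free, the shares were 40.5% of isolated sites, 18.4% of all common regions and 1.73% of the same 6189 windows 1 kb away. The intervals cover counting error only, and matches were not tested for binding.

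The cores sat at the centres of the sites. Of the 20 bp bins around the centre, the one just before it held a core in 295 sites and the one just after it in 299. A single core was present in 786 sites, 389 on the plus and 397 on the minus strand, and 3 sites held more. The core was inside a footprint in 88.5%, 95.7% and 96.1% of the 789 sites in replicates 1, 2 and 3. Footprints with a core had a median width of 25, 28 and 29 bp, whereas footprints with none of the 20 words searched had a median of 9, 10 and 10 bp. A word counted where its midpoint fell inside, so wider footprints hold any word more easily, and the part of this in the widths was not tested. The median was 15, 22 and 21 bp for footprints with an E-box CAGATG and 10, 10.5 and 10 bp for those with a GATA word. Of the footprints of 30 bp or more in isolated sites, 32.1%, 29.8% and 32.7% held the core. Among footprints of any width the core was in 8.02%, 7.45% and 7.5%, against 0.0292%, 0.03% and 0.03% of windows of the same widths moved by 1 kb.

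**Figure D1:**
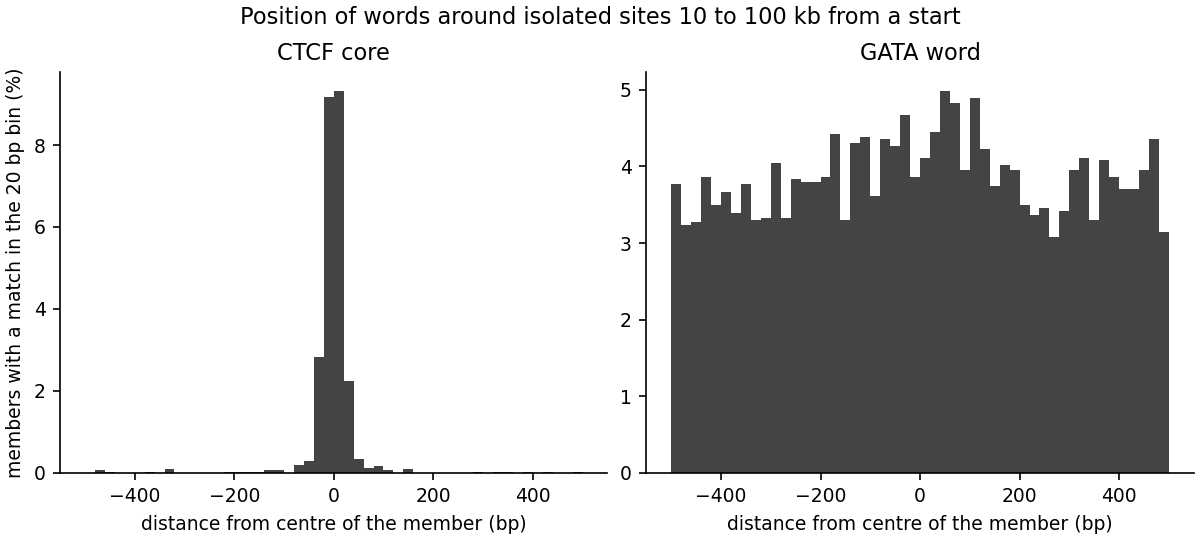
Share of the 3212 isolated sites with a match in each 20 bp bin (vertical axis, percent) by distance from the centre of the site (horizontal axis, bp), for the CTCF core on the left and the GATA word on the right, on separate vertical scales. The CTCF bins beside the centre hold 295 and 299 sites, while the GATA bins show no such peak.

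GATA words were found at similar shares inside the isolated sites and beside them. The word lay in 1018 of 3212 windows (31.7%, Wilson interval 30.1% to 33.3%), against 30.2% of the windows 1 kb away (29% to 31.3%). It lay in 18.7% of all common regions, which include the GC-rich windows within 1 kb of a start, of which 11.5% held it. The median GC content was 53% in isolated sites, 46.5% in the windows 1 kb away and 65% in regions within 1 kb of a start, and the part of base content in these shares was not tested. Footprints covered the word in 15.5%, 22.2% and 18.9% of the 1018 sites in replicates 1, 2 and 3. Among footprints, 2.14%, 2.96% and 2.37% held the word, and among the moved windows of the same widths 2.58%, 2.75% and 2.65%. In replicates 1 and 3 the share was thus lower in the footprints than in the moved windows, and in replicate 2 it was higher.

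The NF-E2 and KLF words had higher shares in the sites than beside them, while the shares of the E-box were similar. The longer NF-E2 word was in 60 isolated sites (1.87%, 1.45% to 2.4%), against 0.291% of the windows 1 kb away and 0.918% of all common regions. A footprint covered it in 46.7%, 50% and 50% of the 60 sites. The KLF word was in 27% of isolated sites and 18.1% of the windows 1 kb away, but in 49.2% of all common regions. The GC box GGGCGG of SP factors was in 13.9% of isolated sites, 3.13% of the windows 1 kb away and 43.3% of all common regions. NRF1 words were in 48 isolated sites (1.49%), in 0.21% of the windows 1 kb away and in 7.57% of all common regions, and a footprint covered them in 70.8%, 72.9% and 72.9% of the 48. The E-box CAGATG, bound by TAL1, was in 16.7% of isolated sites, 15.9% of the windows 1 kb away and 10.4% of all common regions. Sites are not replicates, so no test was made across them, and the part of base content in these shares was not tested.

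**Figure D2:**
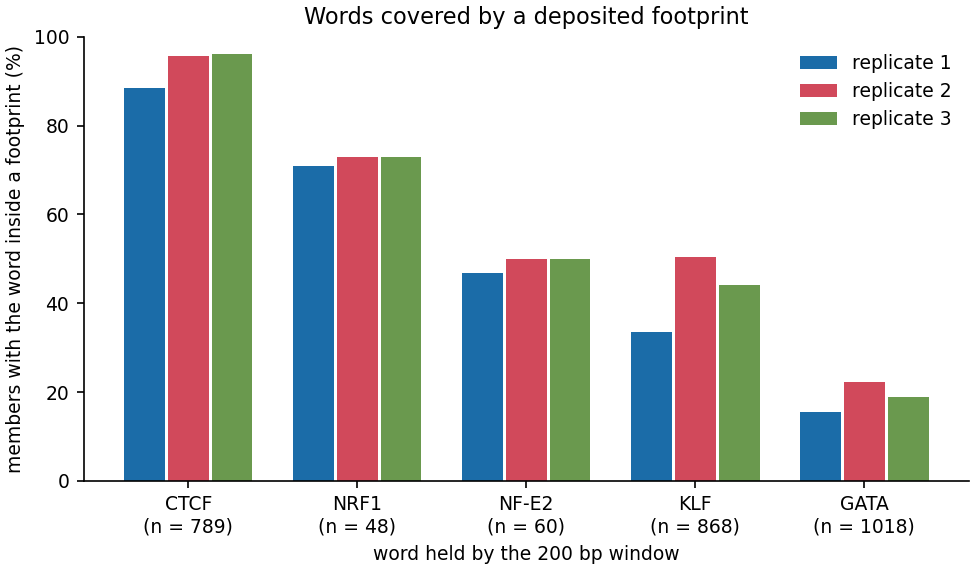
Share of isolated sites in which a deposited footprint covers the word (vertical axis, percent), among sites whose 200 bp window holds it, for 5 words and each of the 3 replicates. CTCF cores are covered in 88.5% to 96.1% of sites and GATA words in 15.5% to 22.2%.

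Although the share of GATA words was similar inside and beside the sites, the sites that held one differed between replicates. The 850 isolated sites with a GATA word and no CTCF core had a median signal of 1.36, 2.15 and 1.37 in replicates 1, 2 and 3. The 789 sites with a CTCF core had 1.35, 1.51 and 1.56, and the 1573 with neither had 1.27, 1.48 and 1.36. Replicate 2 was thus the highest library at the GATA sites, while at the CTCF sites it lay between the others.

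On the log2 scale, the signal of replicate 2 minus the mean of replicates 1 and 3 had a median of 0.56 at the GATA sites, and it was above 0 in 82.1% of them. The median was 0.02 at CTCF sites, with 53.5% above 0, and 0.12 at sites with neither, with 62.7% above 0. Over all common regions 68.9% were above 0. The difference did not rest on 1 of the other libraries: at GATA sites it was 0.54 against replicate 1 and 0.55 against replicate 3, while replicate 3 against replicate 1 was -0.02. The 60 sites with an NF-E2 word had a median of 0.65, and 91.7% were above 0.

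The difference was larger in sites with more GATA words. Among sites without a CTCF core, the median was 0.12 with 0 words (1573 sites), 0.41 with 1 (591), 0.80 with 2 (200) and 0.84 with 3 or more (59). Signal in the 59 sites was 1.6, 2.65 and 1.67 in replicates 1, 2 and 3. Sorted instead by the difference, the 803 isolated sites (25%) in which replicate 2 was relatively highest (0.51 or more) held a GATA word in 58.8% and a CTCF core in 8.59%. In the 803 in which it was relatively lowest (-0.11 or less) these shares were 19.1% and 34.2%, and an NF-E2 word was in 2 sites, against 39 of the first 803. The E-box was in 17.6% and 18.2% of the highest and lowest sites and the FOX word TGTTTNC in 16.9% and 13.7%. The width of the regions differed as well, with a median of 277 bp in the highest 803 and 200 bp in the lowest 803. It was 257 bp at GATA sites without a CTCF core, and 200 bp both at CTCF sites and at sites with neither. The part of width in the difference was not tested.

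Most of the other classes showed a like order of values. The median difference at GATA sites without a CTCF core was 0.52 in isolated regions 1 to 10 kb from a start, 0.55 in clustered regions and 0.45 within 1 kb of a start, and at CTCF sites it was 0.06, 0.07 and 0.10. Over 100 kb away, where there were few regions, it was 0.76 at 35 GATA sites, -0.21 at 7 CTCF sites and -0.11 at 35 with neither, of which 40% were above 0. With 1 library standing apart from 2 there is no replicate of the difference, and no test was made. Differences between embryos, in the mix of cells or in the preparation of the libraries cannot be told apart.

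**Figure D3:**
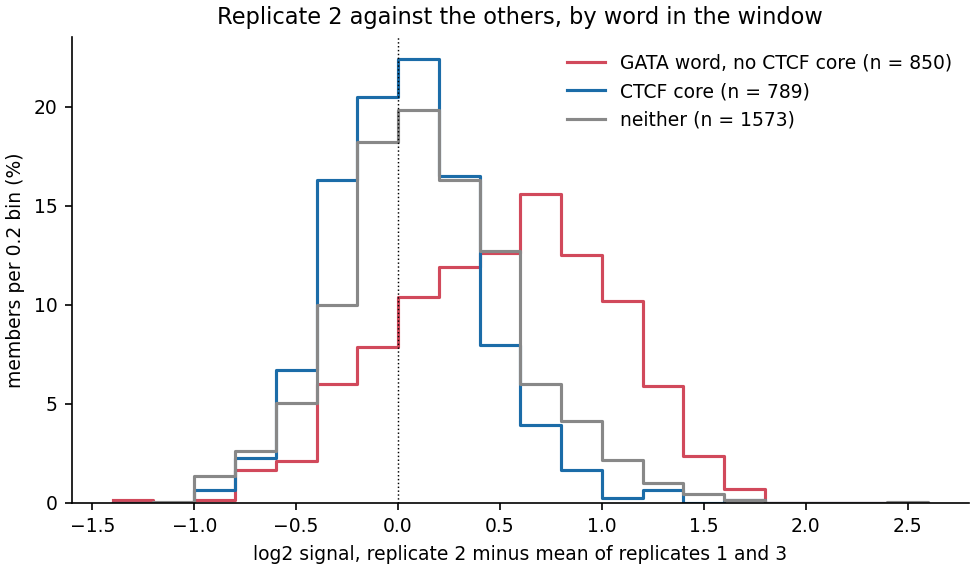
Distribution over isolated sites of the log2 signal of replicate 2 minus the mean of replicates 1 and 3 (horizontal axis), as percent of sites per 0.2 bin (vertical axis), for sites with a GATA word and no CTCF core (n = 850), with a CTCF core (n = 789) and with neither (n = 1573). The GATA sites are shifted to the right, with a median of 0.56, against 0.02 for CTCF sites and 0.12 for sites with neither.

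Sites with a GATA word were also flanked by longer stretches of cut DNA. The deposited FDR files list bases whose local cut rate passed an FDR of 0.05, and within 1 kb on each side of the centre a GATA site had a median of 344.5, 646.5 and 468.5 listed bases in replicates 1, 2 and 3. A CTCF site had 263, 342 and 297, and isolated sites as a whole had 276, 431 and 335. The GATA sites had the higher median in each of the 3 replicates. Their regions were also wider, with a median of 257 bp against 200 bp at CTCF sites. A listed base 500 to 1000 bp from the centre was found in 21.3%, 40.8% and 32.1% of the GATA sites and in 5.7%, 12.9% and 10.3% of the CTCF sites. Over all isolated sites these shares were 14.2%, 26.7% and 21.4%, below those of clustered regions, with 53.4%, 62.8% and 59.3%, whose neighbours can lie in the window.

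**Figure D4:**
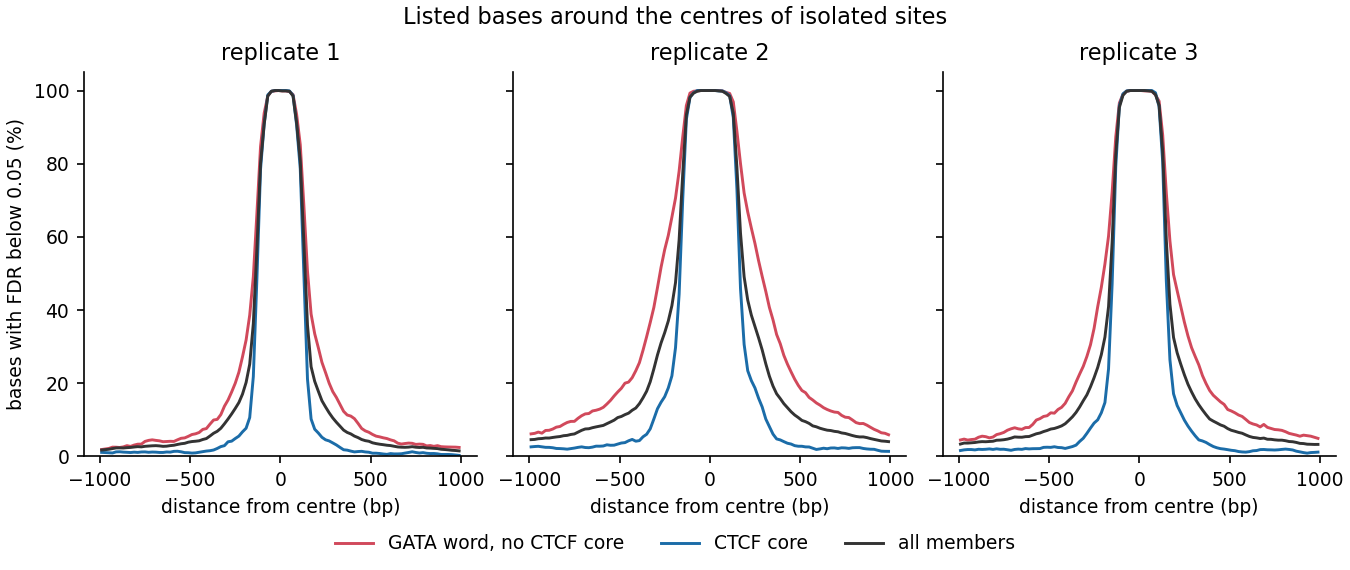
Share of bases listed with an FDR below 0.05 (vertical axis, percent) by distance from the centre (horizontal axis, bp), in 1 panel per replicate, for isolated sites with a GATA word and no CTCF core, with a CTCF core, and for all isolated sites. The curve of GATA sites is the widest in every panel, and the median number of listed bases at GATA sites is 344.5, 646.5 and 468.5, against 263, 342 and 297 at CTCF sites.

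Nearly all isolated sites carried a footprint, as did most regions of the other classes, and footprints did not enter the choice of sites. A footprint overlapped 97.2%, 98.9% and 98.8% of the sites in replicates 1, 2 and 3, compared with 97.9%, 98.2% and 98.6% of regions 1 to 10 kb from a start, 96.6%, 96.1% and 97.7% of clustered regions and 92.5%, 90.8% and 93.2% of regions within 1 kb. A footprint was present in every replicate in 3073 of the 3212 sites (95.7%). In 2659 sites (82.8%) a footprint of replicate 1 overlapped both a footprint of replicate 2 and a footprint of replicate 3. No footprint in any replicate was found in 5 sites. The number per site was 2.73, 3.19 and 3.19, against 2.86, 3.37 and 3.36 in isolated regions 1 to 10 kb from a start and 3.4, 3.81 and 3.85 in clustered regions. The difference was -0.161 ± 0.022 from the regions 1 to 10 kb away and -0.652 ± 0.0295 from clustered regions (mean ± SD, n = 3), and isolated sites were lower in 3 of 3 replicates in both. The exact sign-flip permutation test over replicates gave p = 0.25 for each (two-sided), the smallest that 3 pairs allow, so no threshold of 0.05 could be passed. Clustered regions were wider, with a median of 240 bp against 200 bp in both isolated classes, and per kb the difference from clustered regions was -0.293, 0.228 and 0.0616, without a common direction.

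The median footprint width differed by at most 1 bp between isolated sites and the other distal classes, while the share of wide footprints differed more. The median width in isolated sites was 10, 11 and 10 bp, and in isolated regions 1 to 10 kb away 10, 11 and 11 bp. Footprints of 30 bp or more were 6.68%, 10.3% and 9.33% of those in isolated sites, against 7.97%, 11.2% and 10.2% in regions 1 to 10 kb away, 8.79%, 13.2% and 11.1% in clustered regions and 4.1%, 7.66% and 4.68% within 1 kb of a start. The difference in percentage points was -1 ± 0.244 from regions 1 to 10 kb away and -2.24 ± 0.589 from clustered regions (SD, n = 3), lower in isolated sites in 3 of 3 replicates (exact sign-flip permutation p = 0.25 for each, the smallest possible). From regions over 100 kb away it was -1.56, 3.4 and -1.33, without a common direction. Median signal was also lower in isolated sites (1.44) than in regions 1 to 10 kb away (1.82) and clustered regions (2.45), and its part was not tested. The widest footprint present in all replicates was 85, 84 and 84 bp, in the site near Rnf219 whose window is printed above. Of the 32-base words of this site 37.8% were found once on the assembled chromosomes, and the part of read placement in this width was not tested. The highest mean number of footprints was shared by a site in an intron of Gucy2g, with 13, 12 and 16, and a site near Tmem29, with 5, 20 and 16. The Gucy2g site, at chr19:55218281-55219340, was also the widest of all isolated sites, with 1060 bp.

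Signal was part of the choice of sites and is described without a test. The deposited peak signal had a median of 1.31, 1.60 and 1.42 in replicates 1, 2 and 3, or 1.44 ± 0.146 (SD, n = 3). It was 1.82 ± 0.186 in isolated regions 1 to 10 kb from a start, 2.45 ± 0.360 in clustered regions, 1.06 ± 0.0774 over 100 kb away and 3.65 ± 0.399 within 1 kb of a start. In each replicate the isolated sites had a lower median than the regions 1 to 10 kb away, and a higher one than those over 100 kb away. Within the isolated sites the median was 1.42, 1.72 and 1.51 at 10 to 20 kb (1629 sites) and 1.05, 1.26 and 1.17 at 50 to 100 kb (325 sites). Between these bins the CTCF share was 24.8% and 24%, and the GATA share 31.55% and 34.46%. Across sites, Pearson's r of the log2 signal was 0.92 between replicates 1 and 3 but 0.85 for replicate 2 with 3 and 0.84 for 2 with 1, and sites of a library are not independent of each other.

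**Figure D5:**
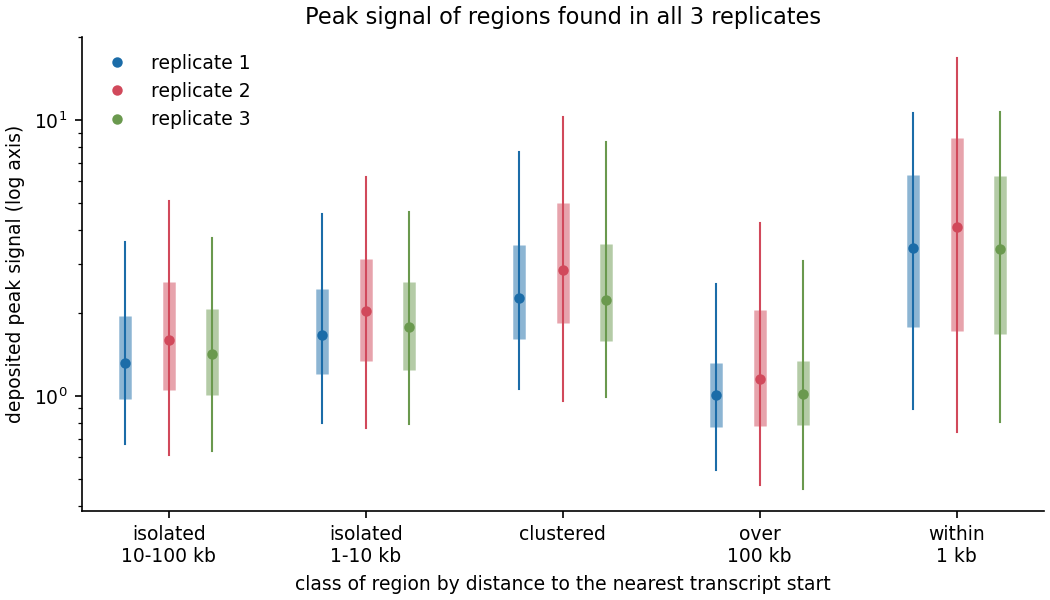
Deposited peak signal (vertical log axis) of regions common to all replicates, by class of distance to the nearest transcript start (horizontal axis) and replicate. Points are medians, thick bars the middle 50% and thin lines the range from the 5th to the 95th percentile over regions, and isolated sites 10 to 100 kb away have medians of 1.31, 1.60 and 1.42.

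Several of the strongest isolated sites lay in sequence that occurs more than once in the genome. The strongest, named after Gm8797 at chr3:5860361-5860530, had a signal of 59.7, 65.9 and 62.4, and none of its 32-base words was found only once on the assembled chromosomes. The second, upstream of Pak3 at chrX:143482981-143483140, had 3.2, 69.2 and 40.8, the largest spread between replicates of all isolated sites. Next came a site in an intron of Jarid2, which codes for an accessory protein of Polycomb repressive complex 2, with 34.3, 22.5 and 35.8. Its neighbour at chr13:44869901-44870100 had 13.8, 8.99 and 14.6. An intron of Gphn, the gene of the synaptic scaffold protein gephyrin, held a site with 30.4, 26.8 and 29.9. Of the 12 strongest sites 3 had at least 90% of their 32-base words found once, compared with 3049 of all 3212 (94.9%), and how reads from repeated copies were placed is not given in the sources used here.

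Among the 12 strongest sites 3 contained a transfer RNA gene of the RefSeq annotation. The GENCODE transcript starts that set the distances did not include these genes. They were a tRNA-Thr gene on the plus strand at chr16:13437323-13437394 with a signal of 13.5, 15.3 and 14.6, a tRNA-Thr gene at chr7:35234770-35234843 on the minus strand with 12.6, 16.9 and 13.5, and a tRNA-Glu gene at chr14:76152774-76152845 on the plus strand with 11.2, 16.1 and 12.8. Transfer RNA genes are transcribed by RNA polymerase III from promoters inside the gene. In all 9 isolated sites overlapped one, in whole or in part (0.28%), with a median signal of 4.89, 5.97 and 5.45. Over all 24196 common regions 235 did (0.971%). The share was 0.485% in isolated regions 1 to 10 kb from a start, 0.396% within 1 kb and 12% in clustered regions (143 of 1194). A further check of any RefSeq start found one within 1 kb of 196 isolated sites (6.1%). Without those 196 sites, which include the 9, the remaining 3016 had a median signal of 1.3, 1.58 and 1.41, a CTCF share of 25.2% and a GATA share of 31.4%.

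The 100 strongest sites held more CpG and GC-rich words than the other isolated sites. They carried a mean of 10.5 CpG per window against 4.79 in the other 3112 sites, an NRF1 word in 12% against 1.16%, a GC box in 39% against 13.1%, and a KLF word in 47% against 26.4%. Over all common regions the NRF1 word was in 7.57%, the GC box in 43.3% and the KLF word in 49.2%. CTCF cores were in 16% of the 100 strongest against 24.8% of the other isolated sites, and GATA words in 21% against 32%. Over all common regions these shares were 9.25% and 18.7%. Over broader ranks the GATA share ran the other way, with 36.6%, 35.2%, 29.9% and 25% in successive sets of 803 sites from the strongest to the weakest. A footprint of 30 bp or more was present in 48%, 59% and 55% of the 100 strongest, against 16.5%, 29.8% and 27.2% of the others. Of the 100 strongest, 14 had a RefSeq start within 1 kb, against 6.1% of all isolated sites. A transfer RNA gene overlapped 5 of them, against 0.28% of all isolated sites. The part of such starts in the CpG and word shares was not tested. At the other end, the 5 weakest sites, near Efhb, Nek11, Eda2r, Hrh1 and Asmt, had signals between 0.218 and 0.542.

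Most isolated sites lay outside coding sequence. Their centres were intergenic in 1763 cases (54.9%) and in an intron of a protein-coding gene in 1235 (38.4%), and a coding exon held 45 (1.4%). Regions 1 to 10 kb from a start were intergenic in 39.7% and intronic in 43.3%. An intron held 46.2% of the GATA sites without a CTCF core and 36.5% of the CTCF sites. The median distance was 19.8 kb to the nearest start of any transcript and 33.0 kb to the nearest protein-coding one. Of the isolated sites 2464 (76.71%) had no other distal common region within the gap and 748 formed pairs. Repeats made up most of the window in 4.02% of sites, against 19.2% of the windows 1 kb away.

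The nearest protein-coding starts belonged to 2416 genes, 11.1% of the 21864 considered, of which 1813 were nearest to 1 isolated site. Cd47, the gene of a surface protein that protects red cells from macrophages, was nearest to the most, 6. Behind it, 11 genes tied at 5, among them Arid1b, a subunit of a chromatin remodelling complex, and Slc30a10, a manganese exporter. Of the listed erythroid transcription factors 8 of 19 (42.1%) were nearest to at least 1 isolated site, 14 sites in all, and of the blood stem and progenitor genes 7 of 15 (46.7%), also 14 sites. Of the lymphoid genes it was 4 of 12 (33.3%), of the endothelial and mesenchymal genes 4 of 15 (26.7%), of the macrophage and neutrophil genes 3 of 20 (15%) and of the hepatoblast and hepatocyte genes 4 of 28 (14.3%). Red cell membrane genes had 3 of 25 (12%), heme and iron genes 1 of 20 (5%), neuron and muscle genes 1 of 18 (5.56%), and megakaryocyte genes 0 of 14. Genes with more empty sequence around them can be nearest to more sites, and its part in these shares was not tested.

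The isolated sites nearest to genes of the red cell membrane, heme and iron, erythroid factor and blood stem cell lists numbered 33, and 22 of them (66.7%) held a GATA word, against 31.7% of all isolated sites and 18.7% of all common regions. A CTCF core was in 2 (6.06%), against 24.6% of all isolated sites. Replicate 2 was the highest of the 3 libraries at 24 of the 33 (72.7%), compared with 54% of all isolated sites and 60.7% of all common regions. A site nearest to Lmo2, a bridging protein of the TAL1 complex, was among the other 9, with 2.26, 2.20 and 1.84 at chr2:103982321-103982520. The lists differed: replicate 2 was highest at 10 of 14 erythroid factor sites (71.4%) and 9 of 14 blood stem cell sites (64.3%). It was highest at 4 of 4 red cell membrane sites and at the 1 heme and iron site. A GATA word was in 78.6% of the erythroid factor sites, 50% of the blood stem cell sites and 75% of the red cell membrane sites. Several of the 33 share a nearest gene, and no test was made. Sptb codes for the β-spectrin of the red cell membrane skeleton, and its introns held a pair of sites with GATA words. The site at chr12:76670621-76671160 had a signal of 1.89, 5.26 and 2.01, and the one at chr12:76673821-76674260 had 2.22, 4.89 and 2.03, both with replicates 1 and 3 close together. Near Cbfa2t3, which codes for the ETO2 corepressor of the TAL1 complex, the stronger of a pair of sites had 6.21, 7.28 and 5.06 at chr8:122720421-122720640 and the other 3.64, 7.63 and 3.37 at chr8:122719741-122720140. A site whose nearest protein-coding start is that of Klf3, although 215 kb away, had 1.99, 3.65 and 1.74 at chr5:64587894-64588220. Aqp1, the water channel of red cells, was nearest to a site of 1.86, 2.28 and 1.49 with no GATA word, at chr6:55323754-55324560. An intron of Steap3, an endosomal iron reductase, held a site of 1.34, 2.26 and 1.87 at chr1:120231381-120231620. In introns of Runx1, a factor needed to form blood stem cells, sites of 3.58, 4.01 and 3.31 and of 2, 4.05 and 2.4 were found at chr16:92801641-92801900 and chr16:92715581-92715860. A site nearest to Cd34, a surface marker of progenitors, had 3.48, 4.64 and 4.01 at chr1:194879681-194879860, with no GATA word.

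The lists of other cell types had 20 nearest isolated sites, of which 7 (35%) held a CTCF core, against 24.6% of all isolated sites, and 0 held a GATA word, against 31.7%. Of these cores 4 were in the 5 sites of the lymphoid list. The 3 strongest near lymphoid genes all held one: an intron of Blnk, a B cell adaptor, had 1.61, 1.59 and 2.18, a site near Tcf7, a T cell factor, had 1.61, 1.46 and 1.96, and an intron of Pax5, the B cell master factor, had 1.5, 1.34 and 1.57. Replicate 3 was the highest at each of them. The strongest site near Irf8, a monocyte factor, held a core too and had 1.54, 1.7 and 1.96. Near Adgre1, which codes for the macrophage antigen F4/80, a pair of sites without a core had 2.94, 3.66 and 3.02 and 3.06, 3.16 and 3.27, although its promoter was not open. The second of these sites was nearer to a transcript start of Vav1, 22.9 kb away, than to that of Adgre1, 23.7 kb away. Dlk1, an imprinted gene of hepatoblasts, was nearest to a site of 3.53, 4.22 and 4.22 at chr12:109437801-109438020, 14.8 kb from its start, to one of 1.17, 1.12 and 1.39 with a CTCF core, 58.7 kb away, and to one of 1.2, 1.27 and 0.979 without a core, 15.9 kb away. An intron of Pdgfrb, a receptor of mesenchymal cells, held a site with a core and 2.58, 2.02 and 2.3, and a site near Cdh5, the endothelial cadherin, had 1.51, 1.28 and 1.58 without one. Sites near Lhx2, with 1.42, 1.33 and 1.7, and Neurod1, with 0.58, 0.602 and 0.482, held no core either. The Lhx2 site was nearer to a start of Gm13584, 12.1 kb away, than to that of Lhx2, 23.5 kb away. The Neurod1 site was 42.6 kb from a start of Cerkl and 42.7 kb from that of Neurod1.

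At the limits of distance, the values just inside and outside were as follows. Just over 10 kb from a start of any transcript, sites named after Acss1 and Fam84b had 2.05, 2.15 and 2.21 and 0.554, 0.594 and 0.422. Their nearest protein-coding starts, those of these genes, were 10.2 and 131 kb away. Just under 10 kb, regions near Ier5l and Prcd had 1.64, 3.23 and 2.03 and 4.04, 3.64 and 3.43. Sites named after Bcat1 and Ajap1, 99.0 and 98.7 kb from a start of any transcript, had 1.39, 1.09 and 0.904 and 1.74, 2.97 and 1.37. The starts of Bcat1 and Ajap1 were 130 and 165 kb away. Past 100 kb, regions in Tshz2 and Myo16 had 0.63, 0.485 and 0.452 and 1.05, 0.987 and 1.22.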

How the data were processed

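Peaks, footprints and FDR values were deposited per replicate on mm10 and not pooled, per the deposited notes beside the files. For the aligner and the callers, a name was not given in the sources used here. Peak signal, as deposited by the authors, was taken unchanged. Its values are whole multiples of a step of 0.0126, 0.00837 and 0.00753 in replicates 1, 2 and 3, but the notes do not define its scaling, so levels in different libraries rest on the authors' processing, and the depth is unknown. Every deposited FDR, a q-value type of measure, is below 0.05.

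Per sample the shorter peak list was used, and peaks sharing 1 bp were joined. Distances run from the edge of a region to GENCODE M21 starts. Regions named in the text were taken by rank of signal, footprints or spread, by gene list, or at the limits of distance, and the transfer RNA genes, the strongest 100 and the NRF1 windows were chosen after the values were seen. Sites, gene lists and words were chosen with earlier results of these data known. Python 3.11.15, numpy 2.4.6 and scipy 1.17.1 were used, and the searches were tested on simulated data. Nothing shows whether embryos were pooled. The p-values printed here reflect only that the differences of these 3 samples share a direction, and not their size or spread.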

Additional observations from a re-analysis of the deposited data

How the results depend on the processing

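Of 72 recomputed values, 49 stayed within the spread between replicates, the interval of the share or 1.5 times the count. The number of isolated sites was 5357 with the longer peak list, 773 with the stronger 50% of peaks, 4852 with protein-coding starts only and 1583 with a lower limit of 20 kb. Leaving out 1 replicate gave 3227 to 5886 sites, the highest without replicate 1, which has the fewest peaks. The longer list gave a median signal of 0.995, a footprint share of 91.5%, a median footprint width of 9.67 bp, a CTCF share of 21.1% and an intron share of 40.3%. The stronger 50% of peaks gave 3.07, 99.9%, 11.7 bp, 21.4% and 33.8% for the same measures. Leaving out 1 replicate gave a median signal of 1.01 to 1.44, a footprint share of 96.6% to 97.6%, a median width of 10 to 10.5 bp, a CTCF share of 22.6% to 24.5%, a GATA share of 30.9% to 34.3% and an intron share of 38.3% to 41.1%. The CTCF share was 40.5% with the looser core. The GATA share was 29.95% with protein-coding starts only and 53.1% in a 400 bp window. Leaving out sites near a RefSeq start, chosen after seeing the data, moved none of 4 values beyond these limits. Apart from the settings' own construction, the cause was not tested. Samples of different groups could not be paired, since the labels give 1 group. The depth behind the signal is unknown, so no limit of detection is given for single sites.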

Other observations

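Words of hepatocyte factors were found at similar shares in the isolated sites and 1 kb beside them. The HNF4 word CAAAGNNCA was in 5.2% of isolated sites (Wilson interval 4.48% to 6.02%) and in 4.75% of the windows 1 kb away (4.25% to 5.31%), the FOX word in 15.4% and 15.7%, and the C/EBP word TTGCNNAA in 8% and 8.06%. Over all 24196 common regions these words were in 3.37%, 10.2% and 5.72%. The HNF1 consensus was in 0 of 3212 sites, with a Wilson upper bound of 0.119%, and in 1 of 6189 windows beside them. It was in 0 of all 24196 common regions as well, so its absence does not set the isolated sites apart. The consensus of nuclear factor I was in 18 isolated sites (0.56%, 0.355% to 0.884%), in 0.0808% of the windows 1 kb away and in 0.364% of all common regions.

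A site near Tmem196, at chr12:120028621-120028840, had 1.25, 5.65 and 5.52 in replicates 1, 2 and 3. Its window was 100% repeat by the reference, and 14.8% of its 32-base words occurred once. A site near Nfkb1, at chr3:135731381-135731580, had 1.39, 6.64 and 3.29, held a GATA word, and 100% of its 32-base words occurred once.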
